A study of Bos taurus with 44 samples.

Results

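IRF1, IRF7, PARP9, PARP14, TRIM21 and IFI16 are genes that regulate or sense the interferon response, and they were followed here through the uterine lining of cattle. They were found by their symbols, and are 6 of the 8073 gene symbols named on a 2-colour array of 13824 probes. Each of the 6 genes had 1 probe, printed as 2 adjacent spots whose values were averaged, and no value was missing on any of the 44 arrays.

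Type I interferons bind a receptor on the cell surface and act through JAK kinases and STAT proteins, which with IRF9 switch on interferon-stimulated genes. In ruminants the trophoblast of the early conceptus secretes interferon tau, a type I interferon that acts on the uterine lining and is known as the pregnancy recognition signal. IRF1 and IRF7 are transcription factors of this response. PARP9 and PARP14 are ADP-ribosyltransferase family members known, from human and mouse work, to act on STAT signalling. TRIM21 is a cytosolic antibody receptor and ubiquitin ligase, and IFI16 is a DNA sensor, both roles known from human cells.

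Each array compared RNA of 2 sources, carrying the dyes Cy3 and Cy5, from the caruncular area (where the placenta attaches) or the intercaruncular area (between the attachment sites). The groups were somatic cell nuclear transfer (SCNT), transfer of an embryo fertilised in vitro (IVF-ET), artificial insemination (AI) and CJ, a group the labels describe by the word cycle. In intercaruncular tissue 5 SCNT animals were set against 5 CJ animals on 10 arrays, and 4 AI animals against the same 5 CJ animals on another 10 arrays. In caruncular tissue 2 SCNT pools were set against 2 AI pools, each pair on 2 arrays with the dyes swapped; no source used here gives the number of animals in a pool. In each area 5 IVF-ET animals, the same in both areas, were set against 5 AI animals in a closed loop of 10 arrays. These AI animals came from a set of 7, called AI loop animals below, and none of them was on the arrays with CJ. No source used here gives the breed, the donor cells, the age of the animals or the day of sampling.

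Values are log2 ratios of the dyes, so no gene has an absolute level, levels cannot be set against each other between genes, and the labelled tissue could not be checked by its markers. The numerator of the ratios is not named in the labels. A ratio of Cy5 to Cy3 is likely, since the oxytocin receptor OXTR then lay 3.54 ± 0.32 lower in SCNT than in CJ animals and 2.71 ± 0.33 lower in AI than in CJ animals (log2 difference ± SE), and ISG15, MX1, MX2 and RSAD2 lay higher. Interferon-stimulated genes are among the basis of that choice, so the direction of the 6 genes against CJ is not a finding of its own. With the other numerator every sign below turns, and sizes and tests stay as they are.

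Among the 7 comparisons, each of the 6 genes had its largest difference in intercaruncular tissue between SCNT and CJ animals. All 6 genes were higher in SCNT than in CJ animals, by between 0.69 for TRIM21 and 2.48 for IFI16 on the log2 scale. They passed the test, limma with Benjamini-Hochberg adjustment over all 13824 probes at 0.05, where 10.4% of probes were called higher in SCNT animals and 21.7% were called in either direction. The estimates of the 5 SCNT animals lay above those of all 5 CJ animals for each of the 6 genes, as they did for 4.57% of all probes. In whole tissue, fewer cells of a type and less RNA per cell cannot be told apart.

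**Figure D1:**
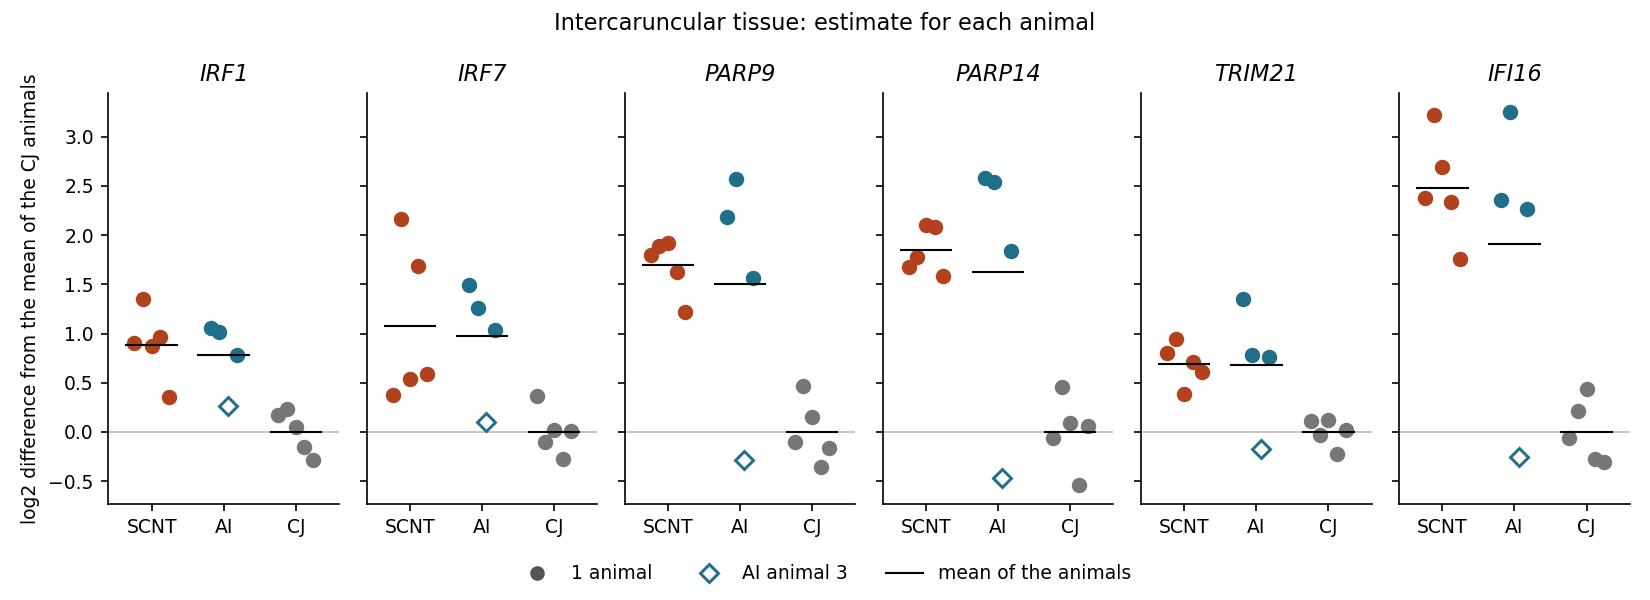
Estimates for each animal in intercaruncular tissue, as the log2 difference from the mean of the 5 CJ animals, for the 6 genes (5 SCNT, 4 AI and 5 CJ animals, from left to right; bars are means over animals). All SCNT animals lie above all CJ animals, whereas AI animal 3 (open diamond) lies among or near the CJ animals and apart from the other 3 AI animals.

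IFI16, the DNA sensor, showed the largest difference of the 6. Relative to the mean of the CJ animals, the 5 SCNT animals stood at 2.38, 3.22, 2.69, 2.34 and 1.76, against -0.06, 0.21, 0.44, -0.28 and -0.31 in the 5 CJ animals. Every SCNT animal was at least 1.76 above the CJ mean, and the highest CJ animal was at 0.44. The log2 difference was 2.48 ± 0.37 (SE), a 5.57-fold difference, with a limma adjusted p of 4.57e-05.

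The paired ADP-ribosyltransferase genes came next, PARP9 and PARP14, which lie close together on 1 chromosome with DTX3L between them in the ARS-UCD2.0 annotation. PARP14 stood at 1.68, 1.78, 2.10, 2.08 and 1.58 in the SCNT animals, against -0.06, 0.46, 0.09, -0.54 and 0.06 in the CJ animals. Its groups were clear of each other, with an SD of 0.24 over SCNT and 0.36 over CJ animals. The log2 difference was 1.84 ± 0.31 (SE) with a limma adjusted p of 0.000186. PARP9 stood at 1.80, 1.89, 1.92, 1.63 and 1.22 in the SCNT animals, against -0.10, 0.47, 0.15, -0.36 and -0.16 in the CJ animals. SCNT animal 5 was the lowest of its group for both genes and still above every CJ animal. The log2 difference of PARP9 was 1.69 ± 0.30 (SE) with a limma adjusted p of 0.000253.

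The 2 transcription factors differed in how their animals spread. IRF1 stood at 0.90, 1.35, 0.87, 0.96 and 0.35 in the SCNT animals, against 0.17, 0.23, 0.05, -0.15 and -0.29 in the CJ animals. Its log2 difference of 0.89 ± 0.11 (SE) had the smallest limma adjusted p of the 6 genes, 8.63e-06. SCNT animal 5 nevertheless lay only a little above the highest CJ animal. That rank depended on the AI arrays, which share the fit. Without AI animal 3 the limma adjusted p for SCNT was 8.73e-07 for IRF1. It was then smaller for IFI16 (3.48e-09), PARP14 (7.56e-09) and PARP9 (1.31e-07). IRF7 stood at 0.38, 2.16, 0.54, 1.69 and 0.59 in the SCNT animals, against 0.36, -0.10, 0.02, -0.28 and 0.01 in the CJ animals. SCNT animals 2 and 4 were high, and SCNT animal 1 differed from the highest CJ animal by less than the error of its own estimate, 0.50. The IRF7 difference was 1.07 ± 0.25 (SE) with a limma adjusted p of 0.0035, and without SCNT animal 2 it was 0.78 and still called.

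TRIM21, the antibody receptor, showed the smallest difference. The SCNT animals stood at 0.80, 0.94, 0.39, 0.71 and 0.61, against 0.11, -0.03, 0.12, -0.22 and 0.02 in the CJ animals. The groups did not overlap, but the estimates carried errors between 0.25 and 0.39. The log2 difference was 0.69 ± 0.18 (SE) with a limma adjusted p of 0.00777.

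On single arrays, 9 of the 10 SCNT arrays had all 6 genes higher in the SCNT animal. The exception paired SCNT animal 3 with CJ animal 2, where IRF7 was at -0.06 and TRIM21 at -0.02, while IFI16 was at 2.39, PARP14 at 1.41, IRF1 at 0.70 and PARP9 at 0.71. SCNT animal 3 had IRF7 at 0.88 on its other array, so the low value was not shared by both arrays of that animal.

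AI animals were likewise set against the same CJ animals, so the differences from CJ of AI and of SCNT share their controls. All 6 genes passed the test as higher in AI than in CJ animals, where 6.92% of probes were called higher and 15.0% were called in either direction. The differences ran from 0.56 for TRIM21 to 1.61 for IFI16. The 4 AI animals did not behave alike: AI animal 3 lay within the range of the CJ animals for 5 of the 6 genes. All 4 AI animals lay above all CJ animals for IRF1, as for 2.8% of all probes. The other 3 AI animals lay above all CJ animals for the 6 genes, as for 7.36% of all probes, where AI animal 3 was set aside after its values were seen. AI animal 3 was on 4 of the 10 AI arrays, 2 of them with CJ animal 3 in swapped dyes.

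IFI16 stood at 2.36, 3.25, -0.26 and 2.27 in AI animals 1 to 4, relative to the CJ mean. The AI mean was 1.91 ± 1.51 (SD, n = 4) against 0.00 ± 0.32 in CJ animals (SD, n = 5), and 2.63 ± 0.54 (SD, n = 3) without AI animal 3. The fit, which gives AI animal 3 more weight for its 4 arrays, put the AI difference at 1.61 ± 0.38 (SE) with a limma adjusted p of 0.00522. That SE rests on the residuals of all arrays with CJ and on 1 correlation shared by all probes. It is therefore no measure of the spread between the 4 AI animals, and the same holds for the other tests against CJ. Without AI animal 3 the difference was 2.68 ± 0.20 (SE) with a limma adjusted p of 6.89e-08.

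PARP14 showed the same split, with 2.58, 2.54, -0.47 and 1.84 in AI animals 1 to 4. PARP9 stood at 2.18, 2.57, -0.29 and 1.56 in these animals. AI animals 1 and 2 were above every SCNT animal for both PARP genes, while AI animal 3 was below the CJ mean. The differences from CJ were 1.33 ± 0.32 for PARP14 and 1.25 ± 0.31 for PARP9 (SE), with limma adjusted p-values of 0.00689 and 0.00686. Without AI animal 3 they were 2.27 for PARP14 and 2.07 for PARP9.

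IRF1 stood at 1.06, 1.02, 0.26 and 0.78 in AI animals 1 to 4. It was the only gene of the 6 for which AI animal 3 lay above every CJ animal, by less than the error of its estimate, 0.09. Its difference from CJ was 0.70 ± 0.12 (SE) with a limma adjusted p of 0.000277, and 0.89 without AI animal 3. IRF7 stood at 1.49, 1.26, 0.10 and 1.04, and TRIM21 at 1.35, 0.78, -0.17 and 0.76. For both, the 3 other AI animals were clear of the CJ range and AI animal 3 was inside it. Their differences from CJ were 0.85 ± 0.26 for IRF7 and 0.56 ± 0.19 for TRIM21 (SE), with limma adjusted p-values of 0.0305 and 0.0465. Without AI animal 3 they were 1.22 for IRF7 and 0.97 for TRIM21.

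Some genes outside the 6 set AI animal 3 apart in the same way, whereas others did not. ISG15 stood at 4.31, 5.53, -0.13 and 3.80 in AI animals 1 to 4, and OXTR at -3.64, -4.38, -1.20 and -2.59. AI animal 3 had OXTR below the lowest CJ animal, at -0.32, and less far from CJ than the other AI animals. The median of 9 stromal fibroblast markers was 0.26 in AI animal 3 and between -1.86 and -1.30 in the other 3 AI animals, against -0.59 to 0.47 in CJ animals. For epithelial markers AI animal 3 was at 0.37 and the other 3 at 0.27 to 0.28, against -0.11 to 0.23 in CJ animals. For targets of interferon gamma it was at 0.33 and the other 3 at 0.37 to 0.98, against -0.1 to 0.09 in CJ animals. For macrophage markers it was at 0.22 and the other 3 at 0.03 to 0.12, against -0.12 to 0.09 in CJ animals. The part of these differences in the values of the 6 genes was not tested.

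The calls against CJ rested on the AI arrays less firmly than on the SCNT arrays. From the 10 AI arrays alone, 1 of the 6 genes was called, IRF1, with a limma adjusted p of 0.0106, and the other 5 had adjusted p-values from 0.0711 to 0.151 with differences between 0.60 and 1.71. The share of all probes called in that fit is not given here, so its count is no result about these genes. With each of the 14 animals left out in turn, IRF1 kept its AI call in all 14 fits. IFI16 kept it in 12, PARP9 in 11, PARP14 in 10, IRF7 in 7 and TRIM21 in 3, whereas all 6 SCNT calls were kept in all 14. The share of all probes that kept a call was not counted. Without AI animal 3, set aside after its values were seen, all 6 AI calls held, with limma adjusted p-values from 3.35e-08 to 0.00305. In that fit 2826 probes were called for AI.

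SCNT and AI animals were compared in intercaruncular tissue through CJ. By their means over animals, the order was SCNT, AI, CJ for all 6 genes, and SCNT and AI did not differ beyond their spread for any of them. None of the 6 genes passed the limma test, where 0.282% of probes were called, and none had an unadjusted p under 0.05, as 7.65% of probes did. The differences lay between 0.13 for TRIM21 (95% interval -0.36 to 0.62) and 0.87 for IFI16 (95% interval -0.12 to 1.86, unadjusted p 0.082, adjusted p 0.741). Without AI animal 3 all 6 differences were below 0, from -0.01 for IRF1 to -0.43 for PARP14, with none called, so the sign of the comparison depended on that animal.

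**Figure D2:**
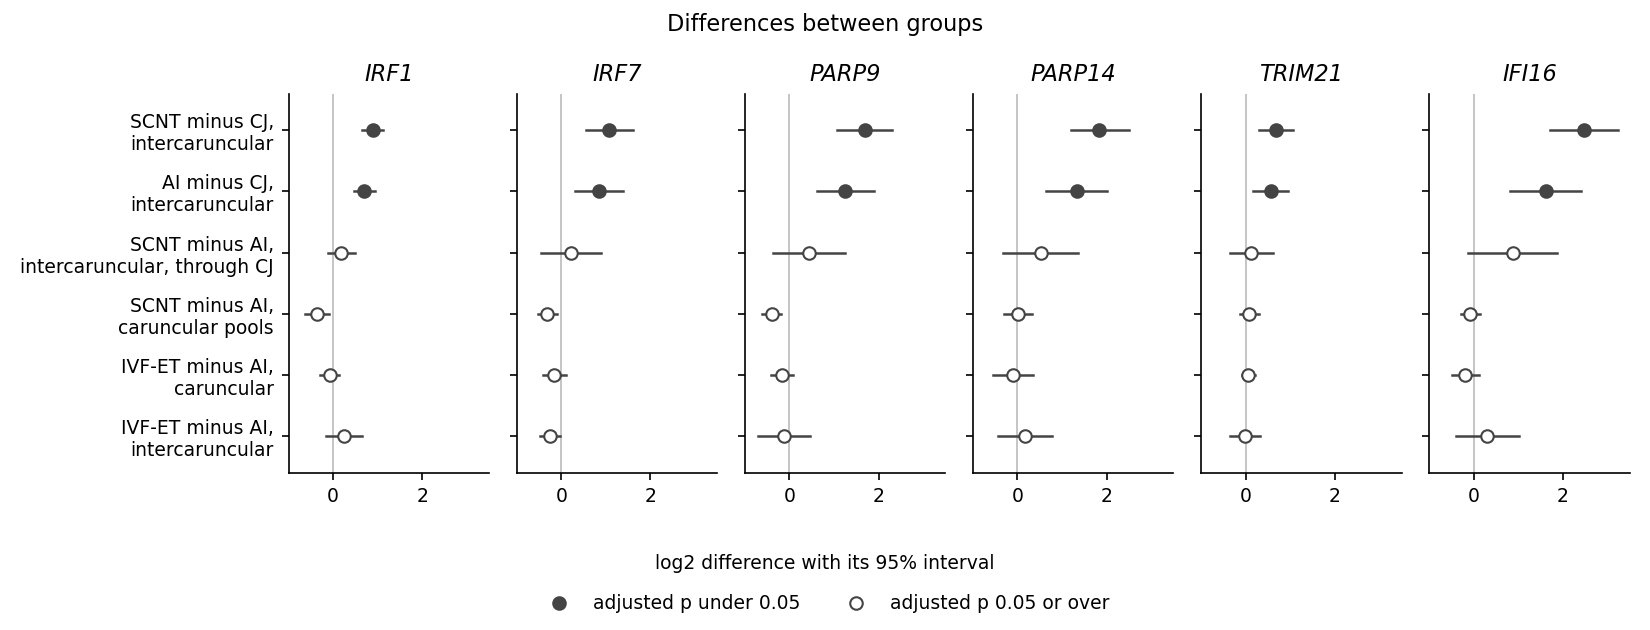
Log2 differences between groups for the 6 genes with 95% intervals; filled points have a limma adjusted p under 0.05. Both comparisons with CJ lie above 0 for all 6 genes, from 0.56 to 2.48, and the other 4 comparisons have open points between -0.40 and 0.87.

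Caruncular tissue offered the comparison of SCNT and AI pools, with 4 arrays and 2 pairs of pools. None of the 6 genes passed the limma test, nor did any probe (0.0% of 13824 called, with 1744 probes, 12.6%, at an unadjusted p under 0.05). The test rests on the means of 2 pairs of pools, so the count of 0 does not show that the pools did not differ. PARP9 stood at -0.40 and -0.32 on the arrays of SCNT pool 1 and at -0.43 and -0.45 on those of SCNT pool 2, as SCNT minus AI. IRF1 stood at -0.27 and -0.13 for SCNT pool 1 and at -0.57 and -0.47 for SCNT pool 2. IRF7 stood at -0.35 and -0.17 for SCNT pool 1 and at -0.55 and -0.18 for SCNT pool 2. These 3 genes were lower in the SCNT pool on 4 of 4 arrays, which are 2 pairs of pools and not 4 replicates. The share of all probes with the same sign on all 4 arrays was not counted.

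The mean difference was -0.40 ± 0.08 for PARP9 (unadjusted p 0.00441, limma adjusted p 0.199), -0.36 ± 0.11 for IRF1 (0.0185, adjusted 0.291) and -0.31 ± 0.09 for IRF7 (0.0133, adjusted 0.274). PARP14, TRIM21 and IFI16 lay at 0.01, 0.08 and -0.08, with signs that differed between arrays. With the 4 arrays taken as separate, PARP9 had a limma adjusted p of 0.0493 and 257 probes were called; that fit counts each dye swap of the same pools as a replicate. The SCNT difference had the other sign in intercaruncular tissue through CJ for PARP9, IRF1 and IRF7 (0.44, 0.18 and 0.22) while AI animal 3 was included. The labels do not say which animals the pools hold, the areas were measured on separate arrays, and the difference between areas was not tested.

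Among other genes in these pools, none of 26 interferon-stimulated effector genes was called. Their median difference was -0.06, and 6 of 26 had an unadjusted p under 0.05, with IFI6 at -0.84, B2M at -0.78 and MX2 at -0.54 (limma adjusted p 0.13 for MX2). The median over 8 targets of interferon gamma was -0.25, and 3 of 8 had an unadjusted p under 0.05, with CD74 at -1.26 and BOLA-DRB3 at -1.05. The median over 9 stromal fibroblast markers was 0.14, with COL1A2 at 0.78 and COL6A3 at 0.66, and 3 of 9 had an unadjusted p under 0.05. The median over 10 trophoblast markers was 0.70, with 8 of 10 above 0 and 5 of 10 at an unadjusted p under 0.05 in either direction. Of these, PTI had the smallest adjusted p (0.0753) and was below 0, at -0.91, whereas TKDP1 stood at 2.24. The median over 11 epithelial markers was -0.34, with 0 of 11 above 0 and 7 of 11 at an unadjusted p under 0.05. Over all probes that share was 12.6%. None of these genes was called, and their part in the values of the 6 genes was not tested.

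IVF-ET and AI animals of caruncular tissue had differences between -0.19 and 0.05 for the 6 genes. None of the 6 passed the limma test, where 0.0217% of probes were called, and none had an unadjusted p under 0.05, as 9.11% of probes did. TRIM21 was at 0.05 ± 0.07, IRF1 at -0.08 ± 0.10, PARP14 at -0.11 ± 0.20, IRF7 at -0.16 ± 0.12, PARP9 at -0.17 ± 0.11 and IFI16 at -0.19 ± 0.13 (log2 difference, IVF-ET minus AI, ± SE). The 95% intervals ran from -0.55 to 0.34 for PARP14, the widest, and from -0.09 to 0.20 for TRIM21, the narrowest. Of 26 interferon-stimulated effector genes none was called in this loop. Their median was -0.19 with 2 of 26 above 0, and 10 of 26 had an unadjusted p under 0.05. In the intercaruncular loop the median of these genes was 0.11, with 23 of 26 above 0 and 1 at an unadjusted p under 0.05.

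AI loop animal 2 carried the lowest caruncular values of 3 of the genes. On its 2 arrays PARP14 was at -1.02 and -1.28, against -0.31 to 0.61 on the other 8 arrays, as IVF-ET minus AI. PARP9 was at -0.82 and -0.54 and IFI16 at -0.65 and -0.98 on the same arrays. A low ratio there means more signal in AI loop animal 2 than in the IVF-ET animal beside it, and it recurred with 2 IVF-ET animals and in both dyes. Without that animal the differences were 0.15 for PARP14, -0.04 for PARP9 and -0.03 for IFI16, with none called.

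**Figure D3:**
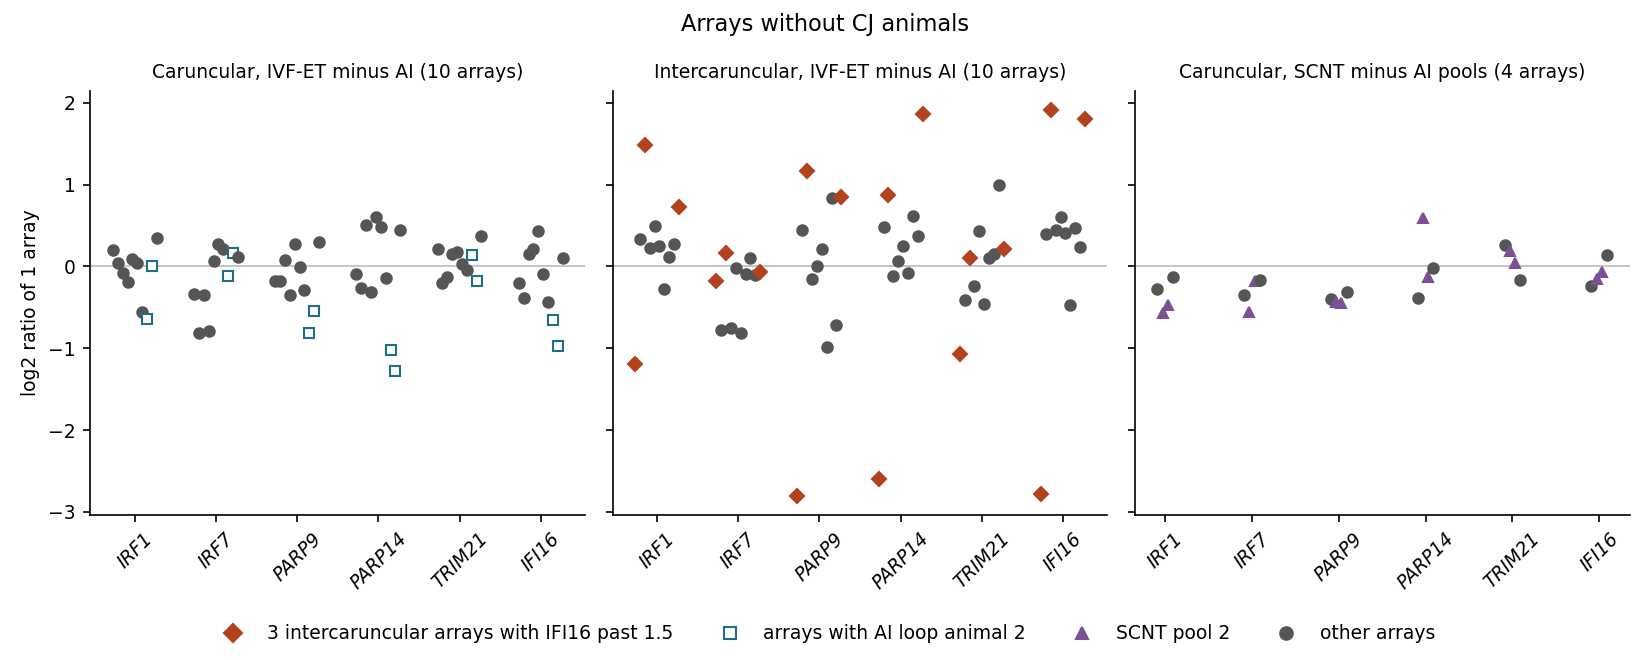
Log2 ratio of each array for the 6 genes: caruncular IVF-ET minus AI (10 arrays), intercaruncular IVF-ET minus AI (10 arrays) and caruncular SCNT minus AI pools (4 arrays). Red diamonds are the 3 intercaruncular arrays on which IFI16 lay beyond 1.5 in either direction. Open squares are the caruncular arrays of AI loop animal 2, which lie lowest for PARP14 in that loop. The intercaruncular arrays of that animal carry no square. Triangles are SCNT pool 2.

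In intercaruncular tissue 3 of the 10 IVF-ET arrays stood apart from the rest, and this bears on every value of that loop. IFI16 was at -2.78 on the array of IVF-ET animal 5 with AI loop animal 4, at 1.91 on that of IVF-ET animal 4 with AI loop animal 2, and at 1.81 on that of IVF-ET animal 5 with AI loop animal 3. The other 7 arrays lay between -0.48 and 0.61. PARP9 was at -2.80, 1.17 and 0.85 on the same 3 arrays and PARP14 at -2.60, 0.88 and 1.86, while IRF7 stayed between -0.18 and 0.17 on them.

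Genes outside the 6 moved on these 3 arrays too, with ISG15 at -4.77, 2.61 and 3.35 and the collagen gene COL1A1 at 3.05, -3.89 and -2.87. Other arrays of the same animals did not repeat the values: AI loop animal 4 had IFI16 at 0.40 and AI loop animal 2 at 0.44 on their other array. The 2 arrays of IVF-ET animal 5 lay in opposite directions, with a correlation of -0.517 over all probes, and 3 of the 45 pairs of arrays in this loop correlated below -0.3. Added round the closed loop as Cy5 minus Cy3, ratios sum to 0 when there is neither dye effect nor error. The sums were -4.04 for IFI16, -5.51 for PARP9, -4.46 for PARP14, -0.86 for IRF1, 1.30 for TRIM21 and 2.08 for IRF7, where the SD of the sum over all probes was 2.26. In the caruncular loop the 6 sums lay between -1.06 and 0.45, where the SD over all probes was 1.15. Whether a label of these arrays is wrong was not tested.

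With all 10 arrays none of the 6 genes passed the limma test in intercaruncular tissue, where 0.00724% of probes were called. IFI16 was at 0.30 ± 0.33, IRF1 at 0.24 ± 0.19, PARP14 at 0.17 ± 0.28, TRIM21 at -0.02 ± 0.16 and PARP9 at -0.11 ± 0.27 (log2 difference ± SE). With 1 animal left out at a time, IFI16 ran from 0.08 without AI loop animal 2 to 0.68 without AI loop animal 4, and IRF1 from 0.08 without IVF-ET animal 4 to 0.41 without AI loop animal 4, with none called. IRF7 was at -0.25 ± 0.10, with an unadjusted p of 0.0282 and a limma adjusted p of 0.495, where 9.3% of probes had an unadjusted p under 0.05. It was lower in the IVF-ET animal on 8 of 10 arrays, with -0.78, -0.76 and -0.81 on 3 of the 5 arrays with the IVF-ET animal in Cy3 and -0.18 to 0.17 on the 5 with it in Cy5.

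Without the 3 arrays that stood apart, a choice made after seeing the data, the differences were 0.28 ± 0.12 for IFI16, 0.20 ± 0.11 for IRF1, 0.21 ± 0.11 for PARP14, 0.13 ± 0.13 for TRIM21, -0.12 ± 0.14 for PARP9 and -0.32 ± 0.12 for IRF7, with none called. Both intercaruncular arrays of IVF-ET animal 5 were among the 3, so that animal dropped out and the loop was no longer closed. The arrays were left out by the values of IFI16 itself, so a smaller SE of IFI16 and of genes that moved with it follows from the choice.

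The IVF-ET difference itself was compared between areas, caruncular minus intercaruncular. None of the 6 genes passed the limma test, where 0.00723% of probes were called, and none had an unadjusted p under 0.05, as 6.51% of probes did. The differences between areas lay from -0.49 ± 0.39 for IFI16 to 0.09 ± 0.17 for IRF7 (SE), and the 95% interval of IFI16 ran from -1.29 to 0.31.

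Across the 44 arrays the ratios of the 6 genes moved together. Pearson correlations between pairs of the genes ran from 0.703 for IRF7 with PARP14 to 0.957 for PARP14 with IFI16, and PARP9 and PARP14 correlated at 0.949. The arrays share animals, and a dye swap turns the sign of a group difference, so these are descriptions with no test. Within the groups of 10 arrays, the 15 pairs ran from 0.79 to 0.97 for SCNT with CJ, from 0.79 to 0.99 for AI with CJ, from 0.01 to 0.88 for the caruncular loop and from -0.02 to 0.97 for the intercaruncular loop.

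Each gene was also set beside the other named genes by the likeness of its ratios over the same 44 arrays. IFI16 was most like IFIT5, ISG15 and RSAD2, with correlations of 0.973, 0.972 and 0.971. PARP9 was most like MX2 at 0.960, IFI16 at 0.952 and ISG15 at 0.951. PARP14 was most like PLAC8B at 0.960, LOC510377 at 0.959 and IFI16 at 0.957. IRF1 was most like MX2 at 0.908, IFI16 at 0.904 and IFIT3 at 0.890. IRF7 and TRIM21 had less close matches: PATL1 at 0.871, CMTR1 at 0.866 and CLN3 at 0.854 for IRF7, and KIAA0319L at 0.873, GPLD1 at 0.868 and ISG15 at 0.868 for TRIM21.

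Relatives of the 6 genes were taken from fixed lists that leave the 6 out, in intercaruncular tissue, with SCNT minus CJ and AI minus CJ side by side. Over all probes, 10.4% were called higher in SCNT and 6.92% in AI animals, and 21.7% and 15.0% were called in either direction. The counts of this list and of all lists below are to be read beside these shares. Of 4 further measured genes of the interferon regulatory factor list, 3 were called higher in SCNT and 2 in AI animals. IRF3, a transcription factor activated by nucleic acid sensors, was at 0.74 in SCNT and 0.65 in AI animals. IRF9, the partner of STAT proteins, was at 1.02 in SCNT animals (limma adjusted p 0.0463) and at 0.80 in AI animals (0.182). IRF2BP2, a binding partner of IRF2 rather than a regulatory factor, was at 0.69 in SCNT and 0.87 in AI animals. IRF8, a factor of blood cell lineages, was at 0.09 in SCNT and 0.10 in AI animals and was not called in either.

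Of 8 other genes of the PARP list, 2 were called higher in SCNT and 1 in AI animals, and the list medians were 0.08 and 0.15, against 0.014 and 0.012 over all probes. PARP10, a mono-ADP-ribosyltransferase, was at 1.23 in SCNT and 0.67 in AI animals. ZC3HAV1, the zinc finger antiviral protein also known as PARP13, was at 0.48 in SCNT animals and at 0.21 in AI animals, where it was not called. TIPARP was at 0.53 in SCNT and 0.46 in AI animals and PARP2, a DNA repair enzyme, at -0.14 in SCNT animals, with none of these called.

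Of 15 other TRIM genes 3 were called higher and 0 lower in each comparison, where 21.7% and 15.0% of all probes were called in either direction. The list medians were 0.02 in SCNT and 0.05 in AI animals. TRIM25, the ubiquitin ligase of RIG-I signalling, was at 0.99 in SCNT and 0.64 in AI animals. TRIM65 was at 0.51 in SCNT and 0.49 in AI animals and TRIM41 at 0.25 in SCNT and 0.24 in AI animals. TRIM21 thus had a difference between those of TRIM25 and TRIM65 in both comparisons.

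Of 14 other nucleic acid sensors and adaptors, 5 were called higher and 1 lower in SCNT animals, and 4 higher and 1 lower in AI animals. IFIH1, the RNA sensor MDA5, was at 1.12 in SCNT and 0.79 in AI animals. EIF2AK2, the kinase activated by double-stranded RNA, was at 0.93 in SCNT and 0.65 in AI animals. MYD88, the adaptor of Toll-like receptors, was at 0.52 in SCNT animals, and LGALS9, a galectin, was at 0.71 in SCNT and 0.46 in AI animals. The gene called lower was DHX9, at -0.25, in SCNT animals and IKBKE, at -0.25, in AI animals. IFI16 exceeded each of the 14 in both comparisons.

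**Figure D4:**
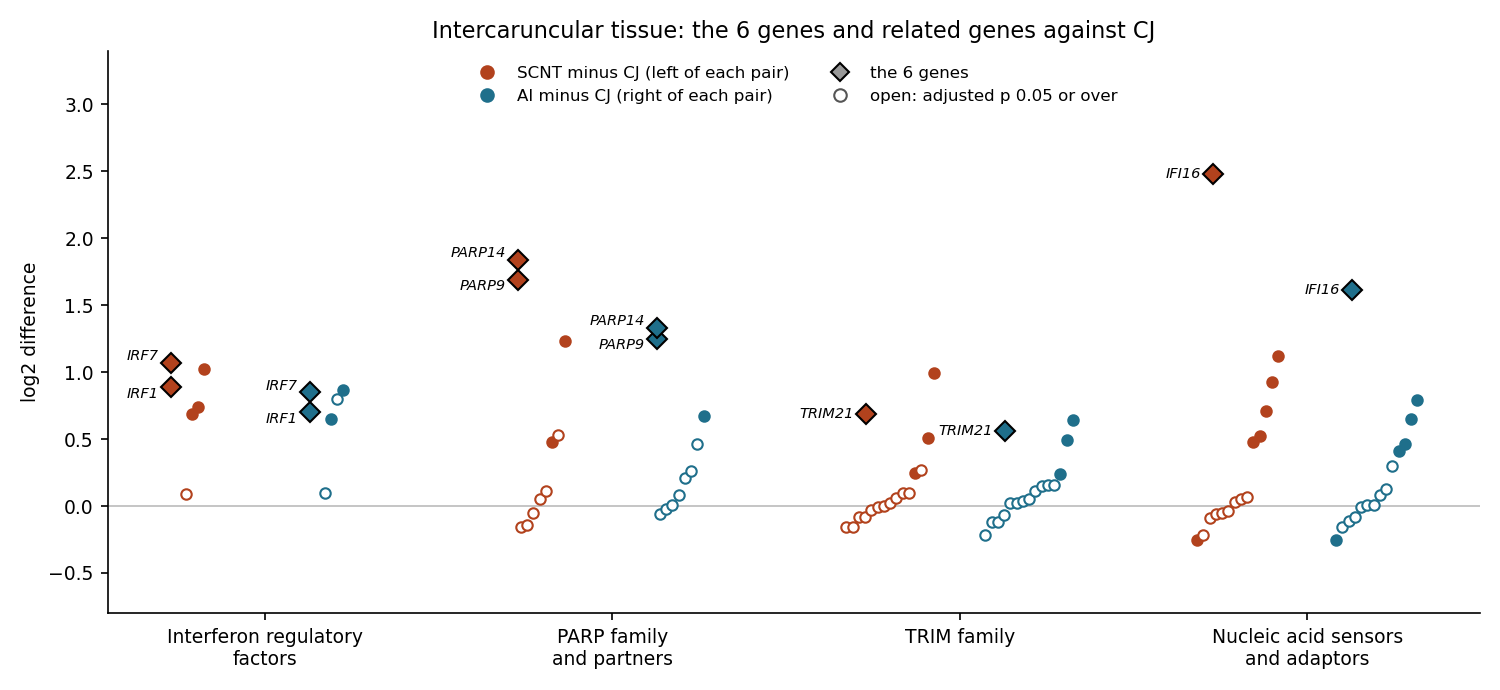
Log2 differences in intercaruncular tissue for the 6 genes (diamonds) and the other measured genes of 4 lists (circles), with SCNT minus CJ left and AI minus CJ right in each pair; filled symbols have a limma adjusted p under 0.05. IFI16 (2.48 and 1.61) and both PARP genes lie above the other genes of their lists, while most TRIM genes lie near 0.

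Upstream and downstream genes of the pathway were described in the same way. Of 6 interferon ligands and receptors, IFNT2, an interferon tau gene, was called higher in SCNT animals at 0.66 (limma adjusted p 0.0382) and the receptor chain IFNGR2 lower at -0.36, and none was called in AI animals (1 of 6 at an unadjusted p under 0.05). Of 16 JAK-STAT genes 4 were called higher in SCNT and 5 in AI animals. USP18, which curbs receptor signalling, was at 1.83 in SCNT and 1.11 in AI animals, and PTPN6 was at 0.43 in SCNT and 0.37 in AI animals.

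Of 26 interferon-stimulated effector genes 21 were called higher in SCNT and 20 in AI animals, with medians of 1.38 in SCNT and 1.05 in AI animals. RSAD2 was at 5.44 in SCNT and 3.48 in AI animals, and CMPK2 at 2.17 in SCNT and 1.35 in AI animals. The median over the 26 was between 1.04 and 1.73 in the SCNT animals and between -0.10 and 2.18 in the AI animals, against -0.17 to 0.09 in the CJ animals, with AI animal 3 the one at -0.10. Some of these genes served to choose the dye direction.

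Of 8 targets of interferon gamma, the type II interferon, 4 were called higher and 1 lower in SCNT animals and 5 higher in AI animals. The smallest p was that of the class II gene BOLA-DRA, at 0.77 in SCNT and 1.13 in AI animals. CXCL9, CXCL10 and GBP5 are also among the effector genes in every comparison, so the counts of these lists overlap. GBP5 and CXCL10 are called in AI animals under both. Of 13 NF-kB genes 3 were called higher and 2 lower in SCNT and 2 higher in AI animals, with TNFRSF1A at 0.53 in SCNT and 0.49 in AI animals.

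Markers of cell types moved beside these genes. Of 9 stromal fibroblast markers 8 were called lower in SCNT and 5 in AI animals, with COL6A3 at -3.12 in SCNT and -1.85 in AI animals. The median over the 9 lay between -2.01 and -1.22 in the SCNT animals and between -0.59 and 0.47 in the CJ animals. Of 11 epithelial markers 6 were called higher and 1 lower in SCNT and 3 higher in AI animals, and the animal medians were 0.22 to 0.58 in SCNT against -0.11 to 0.23 in CJ animals. Of 10 trophoblast markers 4 were called higher in SCNT animals, with animal medians of 0.03 to 1.09 against -0.08 to 0.06 in CJ animals, and none in AI animals (0 at an unadjusted p under 0.05). Of 8 endothelial markers 3 were called higher and 1 lower in SCNT animals, with CLDN5 at 0.76 and PECAM1 at -0.76, and 1 higher and 1 lower in AI animals, with CLDN5 at 0.71 and PECAM1 at -0.54. The animal medians of this list were -0.18 to 0.13 in SCNT against -0.08 to 0.09 in CJ animals.

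Leukocyte markers moved less. Of 10 macrophage markers CTSS was the only one called in SCNT animals, at 0.98, and CTSS at 0.91 and AIF1 at 0.24 were called in AI animals. None of 9 T and NK cell markers was called in either comparison by limma (2 of 9 at an unadjusted p under 0.05 in each), nor was any of 4 B cell markers (0 of 4 in each). For comparisons with CJ, the share of all probes at an unadjusted p under 0.05 is not given here. It is at least the share called, 21.7% for SCNT and 15.0% for AI animals, which bears on all such counts against CJ. Ratios do not show whether a marker is at 0 in the tissue. The part of any of these cell types in the differences of the 6 genes was not tested.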

How the data were processed

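Total RNA of frozen tissue was reverse transcribed with oligo-dT into aminoallyl cDNA that took up Cy3 or Cy5, per the labels' protocols. The deposited table holds the authors' log2 ratio of the dyes for every spot on every array. The base was tested on 331 values below -4, of which 100.0% matched log2 of a ratio rounded to 4 decimals within 6e-05. Spot intensities were not used here, and no source used here gives the scanner, background correction or normalization. Medians of the arrays were between -0.0164 and 0.0124, so no further normalization was applied. With no signal over background known, precision is limited by the number of arrays and by the agreement of spots (Pearson r of the 2 spots of a probe 0.545 to 0.935 per array).

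Probes were named through the platform annotation, with 8645 probes carrying 1 gene symbol, 105 several and 5074 none. Log2 differences were fitted over all probes with limma 3.58.1 in R 4.3.3, with a term for the dye, after whitening by a correlation between arrays of the same animal (estimated as 0.13 for caruncular IVF-ET arrays, 0.0 for intercaruncular ones and 0.12 for arrays with CJ), and Benjamini-Hochberg adjustment at 0.05. A probe needed values on 80% of the arrays of a fit. The AI and SCNT arrays with CJ entered 1 fit. Dye swaps of a pool pair were averaged and the 2 means tested against 0. Estimates for each animal came from a fit with 1 coefficient per animal. The fits were tested on simulated data with normal spread and no array that stands apart. True differences of 0.5 on the log2 scale were recovered for 89% of changed probes in the caruncular IVF-ET loop and 69% in the intercaruncular one. The recovery was 68% for SCNT and 72% for AI against CJ. The fit of the pools recovered 0% at 0.5 and 0% at 1, so a count of 0 there cannot speak to such differences. Animals were taken as separate from their label names and numbered within a group by label; the labels do not tie these numbers across groups.

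The 6 genes and all gene lists were chosen with earlier results of these data known, and the calls of the 6 against CJ are no independent support for a pattern already seen. Named from each list were up to 4 genes with the smallest p. Genes like each of the 6 were the 3 named genes with the highest Pearson r over the 44 arrays. Alternatives were no animal correlation, no dye term, arrays scaled to a common spread, single spots, probes complete on every array, robust moderation, leaving out animals and, for the arrays with CJ, each comparison's own arrays. Sequences are not printed here.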

Additional observations from a re-analysis of the deposited data

Results flagged for a closer look

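Values of each animal were averages over its arrays in the IVF-ET loops and fitted estimates on the arrays with CJ. They were compared within groups by Dixon's criterion in 42 groups, of which chance alone would give about 1 in 20 an extreme value. Both values past it belonged to AI loop animal 2 in caruncular tissue. PARP14 averaged -1.15 on the 2 arrays of that animal (IVF-ET minus AI), against 0.12 for the nearest of the other 4 AI loop animals, a gap of 0.955 of the group's range. PARP9 averaged -0.68, against -0.15 for the nearest, a gap of 0.716 of the range. In intercaruncular tissue 1 array of the same animal was among the 3 that stood apart, with the opposite sign for both genes (PARP14 at 0.88 and PARP9 at 1.17), and its other array had PARP14 at -0.12 and PARP9 at -0.16. AI animal 3 of the arrays with CJ is in a group of 4 and did not pass the criterion for any of the 6 genes.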

How the results depend on the processing

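The 6 SCNT differences from CJ kept their direction and their call in all 48 fits with another setting and all 84 with an animal left out. The 6 AI differences from CJ kept their direction throughout and lost the call in 6 of 48 and in 27 of 84. These 6 were TRIM21 from spot 1 alone (limma adjusted p 0.0733) and 5 genes when the AI arrays were fitted alone. In that fit, whose share of all called probes is not given here, the number of called genes was 1. Leaving out animals from the fit of all arrays with CJ moved the number for AI between 1 and 6. Called probes for AI then ran from 1286 to 2826, against 2074. For SCNT they ran from 2046 to 3804, against 2994, with all 6 genes called. For SCNT minus AI through CJ the called probes ran from 8 to 53 with animals left out, against 39, and the differences from -0.01 to 0.27 for IRF1, -0.15 to 0.41 for IRF7, -0.37 to 0.76 for PARP9, -0.43 to 0.79 for PARP14, -0.28 to 0.36 for TRIM21 and -0.20 to 1.32 for IFI16, each lowest without AI animal 3.

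In the pools, 94 probes were called from spot 1, 2 from spot 2 and 257 with the 4 arrays taken as separate, where 1 of the 6 genes was called. PARP14 was at -0.01 from spot 1, and at -0.20 or 0.23 with 1 pool pair.

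Between IVF-ET and AI no gene of the 6 was called under any setting. Called probes in the caruncular loop were 0 with scaled arrays, 0 from spot 1, 1 from spot 2 and 0 to 2 with animals left out. In the intercaruncular loop they were 2 without the dye term, 0 with scaled arrays, 0 from spot 1, 2 with robust moderation, 2 without the 3 arrays that stood apart and 0 with any animal left out. For the difference between areas they were 0 with scaled arrays and 0 to 3 with animals left out. Signs turned for TRIM21 without those 3 arrays (0.13 in the intercaruncular loop, -0.05 between areas), and between areas for IRF7 with scaled arrays (-0.01) and PARP9 from spot 2 (0.03). With animals left out, caruncular values ran from -0.15 to 0.06 for IRF1, -0.27 to 0.15 for PARP14 and -0.02 to 0.11 for TRIM21. Intercaruncular values ran from -0.08 to 0.48 for PARP14, -0.35 to 0.15 for PARP9 and -0.18 to 0.16 for TRIM21. Differences between areas ran from -0.06 to 0.26 for IRF7, -0.66 to 0.03 for PARP14, -0.35 to 0.27 for PARP9 and -0.09 to 0.23 for TRIM21. With the animal as a replicate block across areas 1 probe and none of the 6 genes was called, as without it. The causes of these changes were not tested. Another probe of each gene could not be tried, since each has 1.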
